A study of Homo sapiens with 10 samples.

Results

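SLC7A11, SLC3A2, GCLM, GCLC, NQO1, TXNRD1, HMOX1, SRXN1 and OSGIN1 are 9 genes of cystine uptake, glutathione synthesis, the thioredoxin system and related detoxification that the transcription factor NRF2 is known to activate. They were chosen by symbol from the 57993 symbols of the series, and all 9 had 1 row in every table and were among the 17779 genes tested. Their RNA levels were compared in HCT116, an established colorectal carcinoma line of human origin, and its KDM5A-/- derivative. KDM5A is an enzyme of chromatin that demethylates lysine 4 of histone H3, and the study, by its title, addresses how SMYD2 methylates KDM5A. KDM5A-/- cells were transfected with mutant KDM5A (2 libraries), with wild-type KDM5A (3 libraries) or with empty vector (3 libraries), and parental cells, of wild-type genotype, with empty vector (2 libraries). Which residue was mutated is not named. All cells were transfected for 24 h and sorted for GFP, and total RNA was extracted from the sorted cells. Both lines grew in medium with 5% serum, and the knockout cells alone were maintained with 300 µg/mL G418, so knockout, G418 and the line itself cannot be told apart. The labels give the knockout as 1 purchased line. Whether replicates were grown as separate cultures is not stated, and the p-values therefore reflect only how far these libraries spread, which may be technical.

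NRF2, encoded by NFE2L2, is held by KEAP1 and degraded in unstressed cells. Oxidants and electrophiles release it, and it then binds antioxidant response elements together with a small MAF protein, while BACH1 competes for the same elements. Its targets import cystine, make glutathione from it, reduce thioredoxin and peroxiredoxins, and break down heme and quinones. SLC7A11 and SLC3A2 form system xc-, the exchanger that brings cystine in for glutamate, and its supply of cysteine limits glutathione synthesis and protection from ferroptosis. SLC7A11 is also a target of ATF4, the factor induced by amino acid shortage.

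To show where antioxidant response elements could lie, the windows from 250 bases before to 50 bases after each annotated start site were taken from RefSeq (GRCh38.p14). The table held 10 windows for 7 of the 9 genes, and SLC7A11 and HMOX1 were not among them. Both strands were searched for TGACNNNGC, the core of the antioxidant response element, and for TGANTCAGC, the related MAF and BACH1 element. The sequence TGACTCAGC satisfies both motifs. TGACNNNGC occurred in 13.3% and TGANTCAGC in 1.36% of 35116 such windows of all genes. The genes of glutathione synthesis, the SLC3A2 window with both motifs, the first TXNRD1 window and the OSGIN1 window are shown 5′ to 3′ on the strand of the gene, with matches in capitals.
GCLM: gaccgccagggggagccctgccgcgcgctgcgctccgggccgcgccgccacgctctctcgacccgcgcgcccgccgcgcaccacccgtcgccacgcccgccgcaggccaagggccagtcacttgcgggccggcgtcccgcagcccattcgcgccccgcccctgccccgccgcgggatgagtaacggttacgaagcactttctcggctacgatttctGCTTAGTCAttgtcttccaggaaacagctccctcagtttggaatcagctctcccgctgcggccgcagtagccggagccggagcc
GCLC: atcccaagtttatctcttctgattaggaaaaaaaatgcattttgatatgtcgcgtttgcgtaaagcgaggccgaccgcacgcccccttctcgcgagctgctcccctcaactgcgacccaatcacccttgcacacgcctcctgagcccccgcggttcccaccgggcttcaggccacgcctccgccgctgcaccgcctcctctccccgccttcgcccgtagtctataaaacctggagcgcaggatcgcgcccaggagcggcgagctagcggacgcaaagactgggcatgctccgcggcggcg
SLC3A2: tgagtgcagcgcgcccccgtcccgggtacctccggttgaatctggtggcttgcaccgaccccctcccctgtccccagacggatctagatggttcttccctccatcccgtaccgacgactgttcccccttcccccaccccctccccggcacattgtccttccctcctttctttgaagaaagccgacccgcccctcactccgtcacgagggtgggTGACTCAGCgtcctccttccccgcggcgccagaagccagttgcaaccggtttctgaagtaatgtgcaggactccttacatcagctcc
TXNRD1: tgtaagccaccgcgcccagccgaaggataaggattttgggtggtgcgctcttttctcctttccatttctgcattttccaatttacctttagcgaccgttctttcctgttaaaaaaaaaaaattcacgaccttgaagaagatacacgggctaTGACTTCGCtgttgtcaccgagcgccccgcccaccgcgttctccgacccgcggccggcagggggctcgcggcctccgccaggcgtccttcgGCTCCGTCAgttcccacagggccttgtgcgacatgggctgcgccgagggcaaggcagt
OSGIN1: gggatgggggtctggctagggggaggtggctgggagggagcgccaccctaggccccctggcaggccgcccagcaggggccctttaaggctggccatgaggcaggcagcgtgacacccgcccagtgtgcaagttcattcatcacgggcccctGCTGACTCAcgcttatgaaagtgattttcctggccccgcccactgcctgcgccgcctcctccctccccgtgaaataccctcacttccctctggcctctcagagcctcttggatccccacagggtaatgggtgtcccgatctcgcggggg
The GCLM window (chr1:93909381-93909680, minus strand) held GCTTAGTCA, the reverse complement of a TGACNNNGC match, from 34 bases before the start site. The SLC3A2 window (chr11:62881449-62881748, plus strand) held TGACTCAGC from 37 bases before one of its 3 annotated start sites, and its other windows held no match. The TXNRD1 window (chr12:104215529-104215828, plus strand) held TGACTTCGC from 99 bases and GCTCCGTCA from 8 bases before the start, and a second TXNRD1 window (chr12:104286782-104287081) held GCTTTGTCA. The OSGIN1 window (chr16:83952990-83953289, plus strand) held GCTGACTCA, a reverse-strand match to TGANTCAGC, from 99 bases before the start. The GCLC window (chr6:53545052-53545351, minus strand) and the windows of NQO1 and SRXN1 held neither motif. A match is a description of letters, and no match says only that these letters are not in this window.

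Values are FPKM, a level per length of transcript and per sequenced total, rescaled by library. In the empty-vector knockout libraries NQO1 (559 ± 24.0), TXNRD1 (519 ± 1.93) and SLC3A2 (483 ± 7.05) were the most abundant, followed by SRXN1 (268 ± 1.12) and HMOX1 (131 ± 2.10; SD, n = 3 throughout). GCLC (102 ± 5.70) and OSGIN1 (98.9 ± 3.55) did not differ beyond their spread, and GCLM (57.1 ± 6.43) and SLC7A11 (47.2 ± 0.171) were lowest. The transporter heavy chain SLC3A2 also serves other amino acid transporters and stood far above its cystine-specific partner SLC7A11 in all 10 libraries. The genes lie in GRCh38 (GENCODE 29) as SLC7A11 at chr4:138164096-138242349, SLC3A2 at chr11:62856101-62888875, GCLM at chr1:93885204-93909456, GCLC at chr6:53497340-53616970 and NQO1 at chr16:69706995-69726951. TXNRD1 lies at chr12:104215778-104350305, HMOX1 at chr22:35380360-35394214, SRXN1 at chr20:646614-653370 and OSGIN1 at chr16:83948281-83966332. TXNRD1 shares its locus with RPL18AP3, a ribosomal protein pseudogene listed at a mean of 566, and NQO1 with CTD-2033A16.1 at 13.2. The strand setting of the counting is not given in the sources used here, so reads of overlapping genes cannot be told apart.

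**Figure D1:**
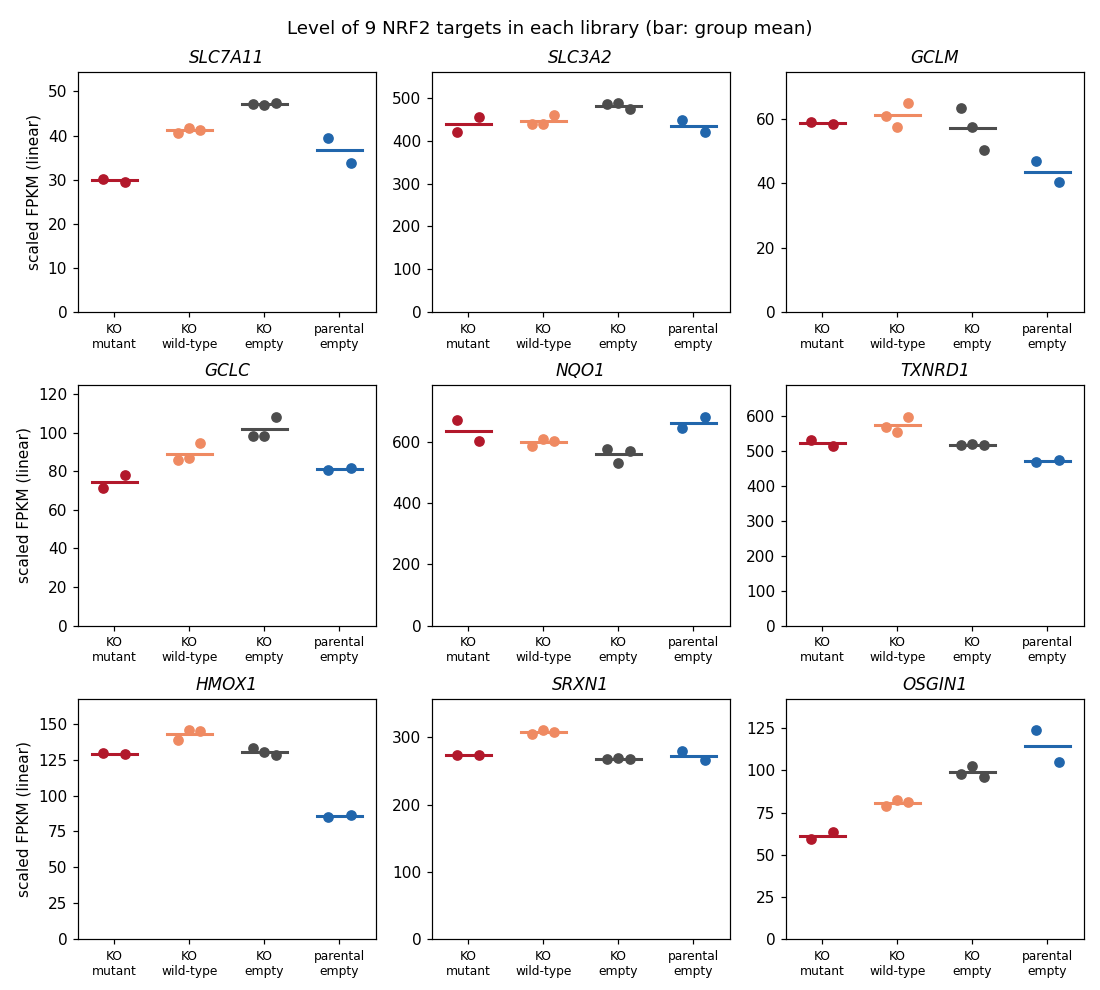
Scaled FPKM (y axis, from 0) of the 9 genes in each library (points) with the group mean (bar), for mutant KDM5A, wild-type KDM5A and empty vector in knockout cells and empty vector in parental cells. SLC7A11, GCLC and OSGIN1 have their lowest points in the mutant KDM5A libraries, and HMOX1 in the parental libraries.

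The labels were checked against KDM5A itself, which was listed at 22816 to 23346 in mutant and 13452 to 16237 in wild-type plasmid libraries, against 12.2 to 15.3 in empty-vector knockout and 13.3 to 17.7 in parental libraries. KDM5A RNA did not pass in the libraries labelled as knockout with empty vector against parental libraries (log2 difference -0.20, limma adjusted p = 0.391), so this level does not check the knockout label. Protein-coding genes held 88.7% to 88.8% of the total in mutant libraries, 88.1% in parental library 2 and 90.2% to 90.7% elsewhere. The share of ribosomal protein genes was 14.8% to 15.5% in these 3 libraries and 11.99% to 13.3% elsewhere. Of 8 epithelial markers, KRT8 (1457 to 2298) and EPCAM (271 to 389) were high in every library. CDH1 (50.5 to 60.9) and CLDN3 (15.75 to 31.9) had lower levels. CLDN3 was lower in knockout than in parental libraries with empty vector (log2 difference -0.62, limma adjusted p = 0.00247). The 8 summed to 5622 to 6132 in mutant and 4900 to 5165 in wild-type KDM5A libraries. The sums were 4650 to 4700 in empty-vector knockout and 4421 to 4988 in parental libraries. Of blood, fibroblast and endothelial markers, COL1A1 (13.5 to 28.7), CD68 (7.95 to 21.0) and CD14 (1.17 to 6.41) were measurable and the others, PTPRC and CD3E among them, stayed at or under 1.55. The 6 blood markers summed to 23.4 to 25.0 in mutant, 21.2 to 26.4 in wild-type KDM5A, 14.97 to 16.4 in empty-vector knockout and 10.4 to 12.8 in parental libraries. The 8 fibroblast and endothelial markers summed to 15.1 to 16.1 in mutant, 18.6 to 25.9 in wild-type KDM5A, 20.9 to 29.3 in empty-vector knockout and 15.7 to 22.9 in parental libraries. The part of these differences in the results was not tested. In bulk RNA, fewer cells that express a gene and less RNA per cell cannot be told apart.

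The first comparison asked how the mutant KDM5A plasmid changed the 9 genes in knockout cells. SLC7A11, OSGIN1 and GCLC fell, none of the 9 rose, and the other 6 did not pass the test, at an adjusted p under 0.05 over all 17779 genes (limma, Benjamini-Hochberg). Across all genes 16.5% passed, 9.48% higher and 7.05% lower. The 9 genes had a median log2 change of -0.02, against -0.01 over all genes tested, and after quantile normalization -0.38, against -0.03.

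SLC7A11, the cystine-carrying chain of system xc-, had 30.2 and 29.5 in the mutant KDM5A libraries, against 47.2, 47.0 and 47.3 in the empty-vector libraries. Every mutant library lay far below every empty-vector library, and the spread within each group was small. The log2 change was -0.64 ± 0.07 (SE; adjusted p = 0.00155 by limma), a fold of 0.641. OSGIN1, an oxidative stress-induced growth inhibitor, had 59.2 and 63.4 with mutant KDM5A, against 97.9, 103 and 95.9 with empty vector. Here too the groups did not overlap, with a log2 change of -0.68 ± 0.07 (SE; limma adjusted p = 0.00167). GCLC, the catalytic subunit of glutamate-cysteine ligase and the rate-limiting enzyme of glutathione synthesis, had 71.0 and 78.0 with mutant KDM5A, against 98.3, 98.4 and 108 with empty vector. All mutant libraries were lower, with a log2 change of -0.44 ± 0.07 (SE; limma adjusted p = 0.00661). These 3 genes passed in the same direction without any one of the 5 libraries compared and under every scaling tried.

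The partners of the genes that fell did not pass. SLC3A2 had 420.5 and 457 with mutant KDM5A, against 485, 488 and 475 with empty vector, a log2 difference of -0.14 with a 95% interval of -0.26 to -0.01 (limma adjusted p = 0.118). Its mutant libraries were lower without overlap. The share of all genes without overlap was not counted in any of the 4 comparisons. GCLM, the modifier subunit of glutamate-cysteine ligase, had 59.1 and 58.4 with mutant KDM5A, within the 63.3, 57.5 and 50.5 of the empty-vector libraries. The difference was 0.05 with an interval of -0.18 to 0.27 (limma adjusted p = 0.791). NQO1, which reduces quinones, had 669 and 600.1 with mutant KDM5A, against 575, 531 and 570.3 with empty vector. Both mutant libraries lay above all empty-vector libraries, at 0.18 ± 0.06 (SE; limma adjusted p = 0.0834). NQO1 did not pass without any 1 empty-vector library. Over the libraries left out the difference was 0.103 to 0.26. TXNRD1, cytosolic thioredoxin reductase, HMOX1, the inducible heme oxygenase, and SRXN1, which repairs overoxidized peroxiredoxins, differed by 0.02, -0.02 and 0.03. Their intervals ran from -0.10 to 0.13, -0.12 to 0.09 and -0.07 to 0.13.

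These near-zero values depended on the scaling. After quantile normalization 8 of the 9 genes passed as lower, where 6.88% of all genes did, with GCLM the exception at 0.00. There NQO1 (-0.24), TXNRD1 (-0.38) and SRXN1 (-0.23) turned direction, and SLC3A2 (-0.49) and HMOX1 (-0.16) passed. In the values as deposited 8 of the 9 passed as lower too, where 34.6% of all genes did. The median of all genes was -0.30 there, and relative to it SLC7A11 differed by -0.67, OSGIN1 by -0.72 and GCLC by -0.48, while TXNRD1, SRXN1 and HMOX1 lay between -0.06 and -0.01.

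**Figure D2:**
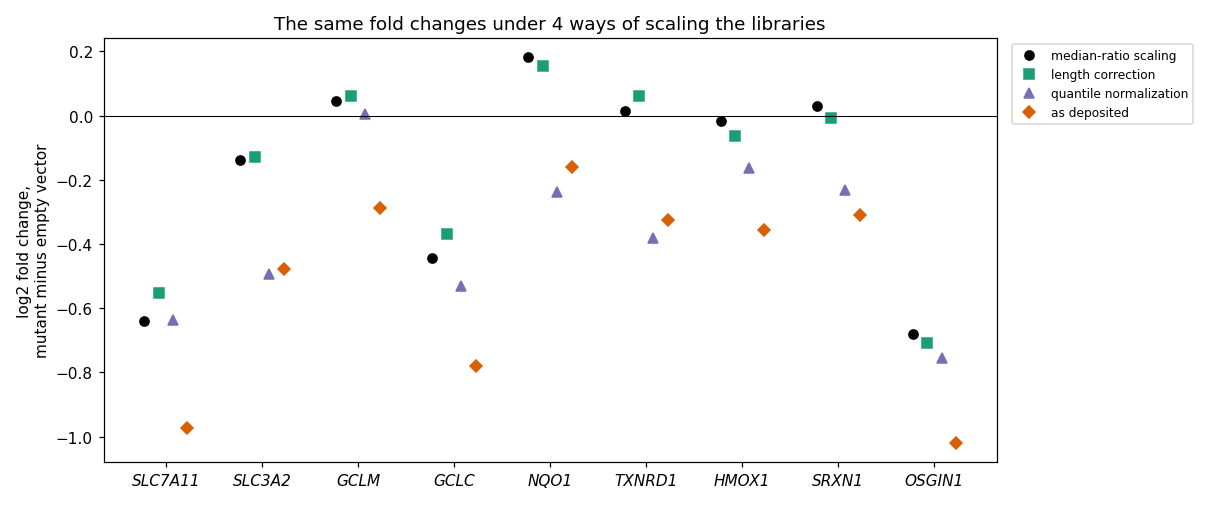
Log2 fold change of mutant KDM5A over empty vector in knockout cells (y axis) of the 9 genes (x axis) under 4 ways of scaling (symbols). SLC7A11, GCLC and OSGIN1 lie below zero under each one, while NQO1 and TXNRD1 are above zero with median-ratio scaling and below it with quantile normalization and as deposited.

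The second comparison asked the same of wild-type KDM5A in knockout cells. SRXN1 rose and OSGIN1 fell, and the other 7 did not pass. Over all genes 4.54% passed, 2.52% higher and 2.02% lower. SRXN1 had 305, 310.5 and 308 with wild-type KDM5A, against 268, 269 and 267 with empty vector. The groups did not overlap and each was tight, with a log2 change of 0.20 ± 0.04 (SE; limma adjusted p = 0.0269). OSGIN1 had 78.6, 82.2 and 81.3 with wild-type KDM5A, against 97.9, 103 and 95.9 with empty vector. Again the groups did not overlap, with -0.29 ± 0.07 (SE; limma adjusted p = 0.0462). Neither passed when any one of the 6 libraries was left out (adjusted p 0.0817 to 0.113 for SRXN1 and 0.109 to 0.153 for OSGIN1), although their log2 changes stayed between 0.19 and 0.21 and between -0.31 and -0.26. SRXN1 also did not pass after quantile normalization, and neither gene passed in the values as deposited.

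Several others missed the threshold with values that did not overlap between the groups, which alone is not read as a change. SLC7A11 had 40.6, 41.7 and 41.3 with wild-type KDM5A, against 47.2, 47.0 and 47.3 with empty vector (-0.19, interval -0.33 to -0.05, limma adjusted p = 0.12). It passed when the libraries compared were fitted alone (adjusted p = 0.0297). With any 1 of the 6 libraries left out it did not pass (limma adjusted p 0.229 to 0.274). Nor did SLC7A11 pass as deposited, after quantile normalization, after a correction for gene length or with replicate numbers as a block. GCLC had 85.9, 86.9 and 94.5 with wild-type KDM5A, against 98.3, 98.4 and 108 with empty vector (-0.19, interval -0.33 to -0.05, limma adjusted p = 0.13). TXNRD1 had 568, 555 and 599 with wild-type KDM5A, against 517, 521 and 518 with empty vector (0.15, interval 0.05 to 0.25, limma adjusted p = 0.101). HMOX1 had 139, 146 and 145 with wild-type KDM5A, against 133, 131 and 129 with empty vector (0.13, interval 0.04 to 0.22, limma adjusted p = 0.111). SLC3A2 (-0.11), NQO1 (0.10) and GCLM (0.10) had adjusted p-values of 0.243 to 0.59. TXNRD1 turned to -0.01 after quantile normalization, and NQO1 to -0.06.

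**Figure D3:**
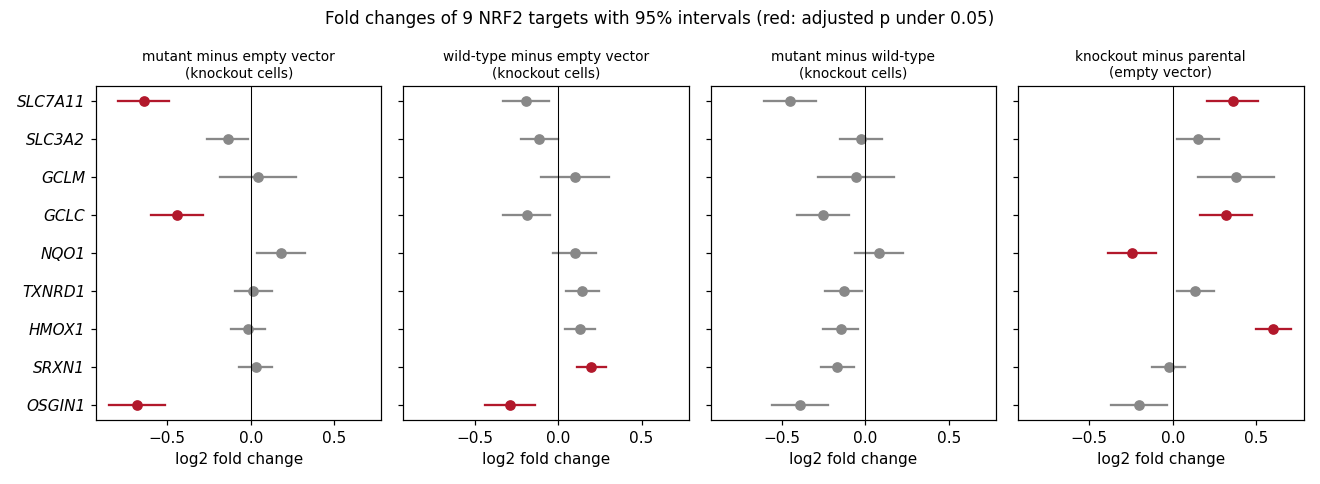
Log2 change (x axis) of the 9 genes in the 4 comparisons with the 95% interval of the limma fit (bars), in red where the adjusted p was under 0.05. SLC7A11 and OSGIN1 lie left of zero with both plasmids, and HMOX1 and SLC7A11 lie right of zero in knockout against parental cells.

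The mutant and wild-type KDM5A libraries were compared directly. None of the 9 genes passed by limma, where 0.0562% of all genes passed (10 genes, 0.0337% higher and 0.0225% lower), and 6 of the 9 had an unadjusted p under 0.05, as did 20.2% of all genes. The difference was largest for SLC7A11, with 30.2 and 29.5 in mutant libraries, against 40.6, 41.7 and 41.3 in wild-type KDM5A libraries. These values did not overlap, and the log2 difference of -0.45 ± 0.07 (SE) had an adjusted p of 0.0580 in limma. Fitted on these 5 libraries alone it passed (adjusted p = 0.0416), as it did with no filter on low values (adjusted p = 0.0435). It also passed in the values as deposited (adjusted p = 0.0318), where the median over all genes was -0.2. SLC7A11 did not pass after quantile normalization, after a correction for gene length or with replicate numbers as a block. Nor did it pass with any 1 wild-type KDM5A library left out, and over all libraries left out its difference was -0.467 to -0.434. OSGIN1 had 59.2 and 63.4 with mutant, against 78.6, 82.2 and 81.3 with wild-type KDM5A, a difference of -0.39 (limma adjusted p = 0.0894). SRXN1 had 274 and 273 with mutant, against 305, 310.5 and 308 with wild-type KDM5A, a difference of -0.17 with an interval of -0.27 to -0.07 (limma adjusted p = 0.0995). GCLC (-0.25), HMOX1 (-0.15) and TXNRD1 (-0.13) had limma adjusted p-values of 0.108 to 0.188. For these genes each mutant library was lower than any wild-type KDM5A library, which alone is not read as a change. SLC3A2, GCLM and NQO1 overlapped between the groups. Both plasmid comparisons share the empty-vector libraries. For SLC7A11 the changes against empty vector were -0.64 with mutant and -0.19 with wild-type KDM5A, for OSGIN1 -0.68 and -0.29, and for GCLC -0.44 and -0.19. KDM5A RNA was also higher in the mutant libraries, as given above, and its part in these differences was not tested.

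The last comparison set knockout against parental cells, both with empty vector. HMOX1, SLC7A11 and GCLC were higher in the knockout and NQO1 was lower, where 8.94% of all genes passed, 4.84% higher and 4.09% lower. HMOX1 had 133, 131 and 129 in knockout libraries, against 84.9 and 86.5 in parental libraries. The gap was far wider than the spread in either group, with a log2 difference of 0.60 ± 0.05 (SE; limma adjusted p = 0.000282) that passed without any one library. SLC7A11 had 47.2, 47.0 and 47.3 in knockout libraries, against 39.5 and 33.9 in parental libraries. Its groups did not overlap, though the parental pair was spread, with 0.36 ± 0.07 (SE; limma adjusted p = 0.0148). It missed the threshold without knockout library 3 (adjusted p = 0.0536) or parental library 2 (0.25, adjusted p = 0.0714). GCLC had 98.3, 98.4 and 108 in knockout libraries, against 80.8 and 81.8 in parental libraries (0.32 ± 0.07, SE, limma adjusted p = 0.0252). NQO1 had 575, 531 and 570.3 in knockout libraries, against 643 and 681 in parental libraries (-0.24 ± 0.06, SE, limma adjusted p = 0.0474). Neither group pair overlapped. GCLC passed without knockout library 1 and missed without each of the other 4 libraries (adjusted p up to 0.0925), and NQO1 passed without parental library 1 and missed without each of the other 4 (adjusted p up to 0.187).

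GCLM had 63.3, 57.5 and 50.5 in knockout libraries, against 46.8 and 40.5 in parental libraries. All knockout values were higher, and the difference of 0.38 ± 0.10 (SE) had a limma adjusted p of 0.0507. It passed without knockout library 3 (0.46) and missed the threshold without knockout library 1 or 2. Over the libraries left out the difference was 0.276 to 0.478. OSGIN1 had 97.9, 103 and 95.9 in knockout libraries, against 124 and 105 in parental libraries (-0.20, limma adjusted p = 0.127). It did not pass without any 1 knockout library. Over the libraries left out the difference was -0.323 to -0.0839. SLC3A2 (0.15) and TXNRD1 (0.13) did not pass (limma adjusted p = 0.123 and 0.126). For both genes every knockout library was higher, which alone is not read as a change. TXNRD1 passed after quantile normalization (0.26). NQO1 passed neither there nor in the values as deposited. SRXN1 overlapped between the groups at -0.02 and was at 0.06 in the values as deposited and 0.02 after quantile normalization.

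Regulators of the pathway were given next. NFE2L2, which encodes NRF2, had 89.0 ± 9.99 with mutant KDM5A (n = 2), 83.7 ± 0.392 with wild-type KDM5A and 86.8 ± 4.07 with empty vector (n = 3 each), against 92.5 ± 0.722 in parental cells (SD, n = 2). It passed in none of the 4 comparisons (limma adjusted p 0.464 to 0.793). KEAP1 had 54.4 and 65.1 with mutant KDM5A, against 73.1, 78.0 and 78.5 with empty vector, a difference of -0.36 (limma adjusted p = 0.0525) that passed after quantile normalization (-0.42, adjusted p = 0.0442). BACH1 passed in none of the 4. MAFF, a small MAF protein, was the regulator that rose with both plasmids. It had 118 and 125 with mutant and 115, 114 and 117 with wild-type KDM5A, against 69.3, 70.6 and 68.0 with empty vector. Neither plasmid group overlapped with empty vector, with 0.80 ± 0.06 for mutant (adjusted p = 0.000387) and 0.73 ± 0.06 for wild-type KDM5A (SE; limma adjusted p = 0.000382). MAFF was also higher in knockout than in parental libraries (58.9 and 51.7), by 0.32 (limma adjusted p = 0.0162), as was SQSTM1, an adaptor that binds KEAP1, by 0.22 (limma adjusted p = 0.0426). SQSTM1 did not pass as deposited (adjusted p = 0.0568) or after quantile normalization (adjusted p = 0.0675). Of the 12 regulators, 1 was higher with mutant KDM5A, 1 with wild-type KDM5A and 2 in knockout against parental cells, and none was lower. The shares of all genes in these comparisons were 9.48%, 2.52% and 4.84% higher and 7.05%, 2.02% and 4.09% lower. The absence of lower regulators with mutant KDM5A depended on the scaling. There KEAP1 and SQSTM1 were lower after quantile normalization, where 6.88% of all genes were. In the values as deposited 5 of the 12 were lower, NFE2L2 among them, where 34.6% of all genes were.

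Other NRF2 targets and neighbouring pathways are given by list for mutant KDM5A against empty vector. There 9.48% of all genes were higher and 7.05% lower (4.99% and 6.88% after quantile normalization). The lists share genes, FTH1, FTL, TXN, PRDX1 and CHAC1 among them, so their counts are not independent. Of 29 other NRF2 targets tested, 9 were higher and 2 lower (3 and 3 after quantile normalization), with a median log2 change of 0.13 (-0.01 after quantile normalization), against -0.01 over all genes. TXN, thioredoxin, had 598 ± 1.75 with mutant KDM5A (n = 2) and 384 ± 26.6 with empty vector (SD, n = 3), a change of 0.64 (limma adjusted p = 0.00742) that was 0.28 after quantile normalization and still passed. The ferritin chains FTH1 (0.61) and FTL (0.55) passed but lay at -0.07 and -0.01 after quantile normalization. The peroxiredoxin PRDX1 (0.58) passed and lay at 0.01 there. Of 22 glutathione enzymes tested, 9 were higher and 2 lower (3 and 3 after quantile normalization). GPX4, which reduces lipid hydroperoxides, rose by 0.51, against 0.11 after quantile normalization, and GSTP1 (0.47) and GPX1 (0.33) each turned to -0.05 there. CHAC1, which degrades glutathione, changed by -0.67 and by -0.64 after quantile normalization, and passed in both. Of 22 thioredoxin and peroxide genes, 12 were higher and 1 lower (3 and 1 after quantile normalization), with a median of 0.30 (0.10 after quantile normalization). PRDX4 passed at 0.56 and, after quantile normalization, at 0.32, while PRDX2 passed at 0.45 and did not at 0.09.

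These counts stood beside the shares of ribosomal protein and protein-coding genes given above, whose part was not tested. Across genes, levels relative to the mean of the libraries varied with gene length. Slopes were -0.07 and -0.13 log2 units per 10-fold of length in mutant and 0.00 to 0.04 in empty-vector knockout libraries. Parental libraries 1 and 2 had 0.14 and -0.01, and wild-type KDM5A libraries -0.03 to 0.04. After a correction for length, chosen after the data were seen, SLC7A11 was at -0.55, OSGIN1 at -0.71 and GCLC at -0.37, and all 3 passed. With that correction 9 other NRF2 targets, 7 glutathione enzymes and 12 thioredoxin and peroxide genes were higher. The share of all genes that were then higher is not given here, so these counts have no baseline. KEAP1 passed as lower with that correction. In knockout against parental cells GCLM then passed as higher and NQO1 did not pass.

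Among heme and iron genes, 2 of 14 were higher and 1 lower with mutant KDM5A, against 9.48% and 7.05% of all genes. The higher were FTH1 and FTL, counted above as other NRF2 targets, and the lower was IREB2, an iron-regulatory protein, at -0.54. After quantile normalization none was higher and IREB2 stayed lower. Of 11 genes of cysteine supply and SLC3A2 partners, SLC38A2, a neutral amino acid transporter, passed at -0.28 and none was higher. SLC38A2 did not pass after the length correction. Of 18 ATF4 targets tested, 5 were higher and 3 lower, with CEBPB at -0.49 and CHAC1 at -0.67, against DDIT3 at 0.48 and ATF4 itself at 0.33, which turned to -0.14 after quantile normalization. The counts there were 2 higher and 6 lower.

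**Figure D4:**
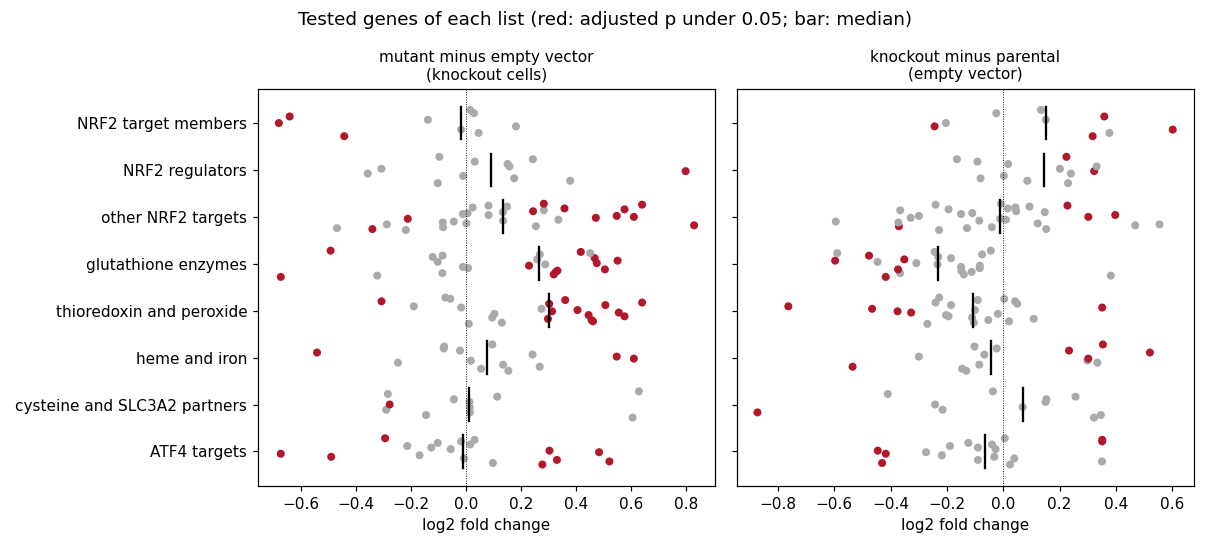
Log2 fold change (x axis) of each tested gene (points, red where the adjusted p was under 0.05) by gene list (rows), with the list median (bar), for mutant KDM5A over empty vector and for knockout over parental cells. Most thioredoxin and peroxide genes lie right of zero in the first (median 0.30, and 0.10 after quantile normalization), where the 9 genes have a median of -0.02 (-0.38 after quantile normalization).

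With wild-type KDM5A against empty vector 2.52% of all genes were higher and 2.02% lower (1.65% and 1.8% after quantile normalization). AKR1B10, an aldo-keto reductase, had 5.05 ± 0.790 with wild-type KDM5A and 2.11 ± 0.189 with empty vector (SD, n = 3 each), a log2 change of 0.95 (limma adjusted p = 0.0145). FTH1 (0.34) and UGDH (0.31), which makes UDP-glucuronate, completed the 3 of 29 other NRF2 targets that were higher, with none lower. CHAC1 fell by 0.41 and GPX1 rose by 0.20 among glutathione enzymes. PRDX4 (0.29) and SOD2 (0.37), mitochondrial superoxide dismutase, rose among thioredoxin and peroxide genes. IREB2 changed by -0.45, and among ATF4 targets CEBPB (-0.32) and CHAC1 fell while DDIT4 (0.39) and ALDH18A1 (0.21) rose. After quantile normalization AKR1B10, UGDH, PRDX4, IREB2 and CEBPB still passed and FTH1, CHAC1, GPX1, SOD2, DDIT4 and ALDH18A1 did not. In the values as deposited AKR1B10, FTH1, CHAC1, IREB2 and CEBPB passed and UGDH, PRDX4, GPX1, SOD2, DDIT4 and ALDH18A1 did not. With replicate numbers as a block only IREB2 and CEBPB of these passed. In mutant against wild-type KDM5A no gene of these 7 lists passed by limma. An unadjusted p under 0.05 was found in 4 of 12 regulators, 12 of 29 other NRF2 targets, 9 of 22 glutathione enzymes, 10 of 22 thioredoxin and peroxide genes, 4 of 14 heme and iron genes, 3 of 11 cysteine and SLC3A2 partners and 6 of 18 ATF4 targets, and in 20.2% of all genes.

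In knockout against parental cells 4.84% of all genes were higher and 4.09% lower, and in the values as deposited 5.46% and 2.09%. Of 29 other NRF2 targets 3 were higher, among them FTH1 at 0.30 and TRIM16L at 0.23, and AKR1B1 lower at -0.37. Among glutathione enzymes 5 of 22 were lower (2 as deposited, GPX4 and GSTM4) and none higher, with GSTM4 at -0.60, LANCL1 at -0.48, GPX4 at -0.37 and GSTO1 at -0.35. GSTM4 had 10.6 ± 1.10 in knockout (n = 3) and 16.5 ± 1.26 in parental cells (SD, n = 2). Of 22 thioredoxin and peroxide genes 4 were lower (1 as deposited, PRDX4), PRDX4 (-0.33), PRDX5 (-0.38) and SESN1 (-0.47) among them, and SESN2, a stress-induced sestrin, was higher at 0.35. Of 14 heme and iron genes 4 were higher, namely IREB2 (0.52), TFRC (0.35), the transferrin receptor, NCOA4 (0.23) and FTH1, and BLVRA, biliverdin reductase, which acts after heme oxygenase, was lower at -0.53. SLC1A1, a glutamate and cysteine transporter, was lower at -0.87. Its levels were low, with 2.14 ± 0.413 in knockout (n = 3) and 4.71 ± 0.00796 in parental cells (SD, n = 2). It passed as deposited and after quantile normalization, and not with replicate numbers as a block. Among ATF4 targets DDIT4 (-0.45), ASNS (-0.43) and CHAC1 (-0.42) were lower and STC2 (0.35) and SESN2 higher, 3 and 2 of 18, against 1 lower and 3 higher as deposited.

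The genes whose pattern over the 10 libraries was nearest to that of SLC7A11 were sought among 11598 genes with a mean of at least 5, by the root mean square difference of log2 values centred on each gene's mean. SLC7A11 itself had a root mean square deviation of 0.235. HIVEP2 (0.053), a zinc finger transcription factor, PHIP (0.054), CASP8AP2 (0.059), the kinase SIK3 (0.069) and AC092171.4 (0.075) were nearest. PHIP had means of 9.23 with mutant KDM5A, 12.5 with wild-type KDM5A, 14.8 with empty vector and 10.96 in parental cells, against 29.9, 41.2, 47.2 and 36.7 for SLC7A11. This describes 10 libraries, which share groups and library composition.

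**Figure D5:**
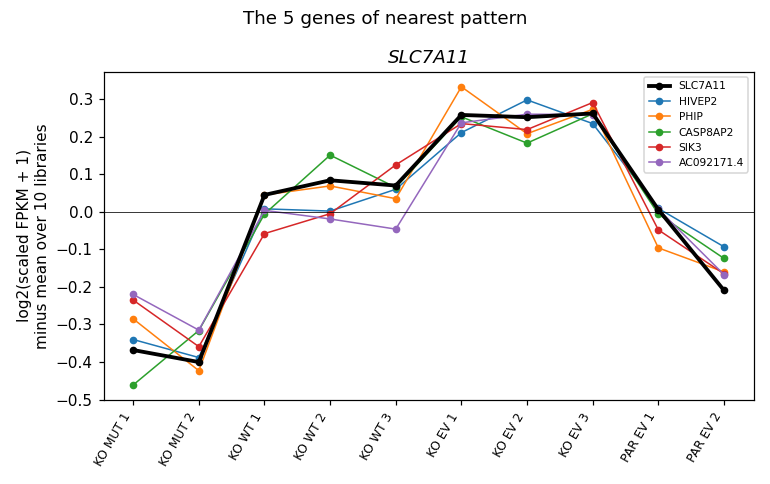
Centred log2 level (y axis) in each of the 10 libraries (x axis) of SLC7A11 and the 5 genes of nearest pattern (lines). All the lines are lowest in the mutant KDM5A libraries and highest in the empty-vector knockout libraries.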

How the data were processed

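For each library the authors deposited log2 FPKM values of 60141 loci, listed by symbol and position. The deposited values are log2 of FPKM plus 1, and their linear values sum to 999975 to 1000008 in each of the 10 tables, so the authors' FPKM had a common total. The submitters' processing notes name Cufflinks 2.2.1, GATK 4.1.2, STAR 2.7.1a and Picard, with the build GRCh38. The annotation release and the strand setting are not given in the sources used here. No read counts were analysed here, so depth and counting precision are unknown.

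Deposited values were made linear, summed per symbol and divided by the library's median ratio to the geometric mean over the 13651 genes of at least 1 in every library. A gene was kept where 2 or more libraries reached a scaled value of 1. Differences were tested two-sided in R 4.3.3 with limma 3.58.1 (trend) on log2(scaled value + 1), with a pseudocount of 1, 4 groups and all 10 libraries in 1 fit (6 residual and 2.99 prior degrees of freedom), adjusted by Benjamini-Hochberg over 17779 genes in each of the 4 comparisons. A fold change on this scale understates the change of low genes. The threshold was an adjusted p of 0.05. The method was tested on simulated data with independent noise in each library and no shift in composition or with gene length. Such data cannot test how the results depend on the scaling. Python 3.11.15 with pandas 2.3.3, numpy 2.4.6 and matplotlib 3.10.9 made the tables and figures.

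Named were the 9 genes, NFE2L2, KEAP1 and BACH1, up to 4 passing genes of smallest p per list and comparison, the 5 genes nearest in pattern to SLC7A11, and KDM5A. The genes nearest to HMOX1 and 1 listed NRF2 target, which the rule also names, are not reported here. The members and lists were chosen with earlier results of these data known. Gene positions came from GENCODE 29 and promoter windows from RefSeq. Alternatives were quantile normalization, the values as deposited, a pseudocount of 0.1, no filter, a mean of at least 5, replicate numbers as a block, array weights, a fit of the libraries compared, each library left out, the 3 libraries of low protein-coding share left out and a length correction.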

Additional observations from a re-analysis of the deposited data

How the results depend on the processing

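Of 531 recomputed values of the 9 genes, 439 kept direction and side of the threshold, 43 lost the threshold, 29 gained it and 20 changed sign. The counts of members that passed were 3 (mutant against empty vector), 2 (wild-type KDM5A against empty vector), 0 (mutant against wild-type KDM5A) and 4 (knockout against parental), and those of all genes 2939, 807, 10 and 1589.

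For mutant against empty vector, 8 members passed as deposited and after quantile normalization, and 3 to 4 with 1 library left out. All genes numbered 6608 as deposited, 2110 after quantile normalization, 1838 in the libraries compared and 1215 to 2644 with 1 left out. Against empty vector, wild-type KDM5A had 0 members as deposited, 1 after quantile normalization, 1 with no filter, 6 with array weights, 4 in the libraries compared, 4 without the 3 libraries of low protein-coding share and 0 with any 1 library left out. All genes numbered 2101 with array weights, 1689 in the libraries compared, 1690 without those 3 libraries and 178 to 311 with 1 left out. For mutant against wild-type KDM5A, 6 members passed as deposited, 1 with no filter and 2 in the libraries compared. All genes numbered 1490 as deposited, 6 after quantile normalization, 93 with no filter, 3 at a mean of at least 5, 3 with array weights, 214 in the libraries compared, 6 after length correction and 5 to 49 with 1 left out. For knockout against parental, 2 members passed with no filter, 2 with array weights, 1 in the libraries compared and 2 to 4 with 1 left out. All genes numbered 1042 with array weights, 464 in the libraries compared, 1047 without the 3 libraries and 685 to 1901 with 1 left out. The cause of these differences was not tested.

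With the replicate number as a block, 3, 0, 0 and 1 members and 1109, 214, 1 and 556 genes passed in the 4 comparisons, and in the last no glutathione enzyme did. Deviations of same-numbered libraries correlated at -0.04 to 0.05 across genes. In wild-type KDM5A against empty vector 1 of 3 correlated best with its own number. In every other comparison either library 1 or library 2 did, and not both. Deviations were taken from the means of very small groups, so these correlations cannot show whether same-numbered libraries shared a culture or batch.

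Sign changed for mutant against empty vector in GCLM (-0.29 as deposited, -0.0381 without empty-vector library 3, in a range of -0.0381 to 0.123 over libraries left out), NQO1 (-0.16 as deposited, -0.24 after quantile normalization), TXNRD1 (-0.33 as deposited, -0.38 after quantile normalization, -0.0108 without mutant library 1, range -0.0108 to 0.0412) and SRXN1 (-0.31 as deposited, -0.23 after quantile normalization, -0.00753 after length correction). For wild-type KDM5A against empty vector it changed in GCLM (-0.011 as deposited), NQO1 (-0.0137 as deposited, -0.0584 after quantile normalization) and TXNRD1 (-0.0149 after quantile normalization). For mutant against wild-type KDM5A it changed in SLC3A2 (0.0327 without mutant library 1, range -0.0873 to 0.0327) and NQO1 (-0.14 as deposited, -0.18 after quantile normalization). For knockout against parental it changed in SRXN1 (0.0582 as deposited, 0.0236 after quantile normalization, 0.0124 without parental library 1, range -0.0616 to 0.0124). The cause was not tested here either. With 2 or 3 libraries a group and no read counts, a difference that missed the threshold is not shown to be absent.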
